A study of Arabidopsis thaliana with 27 samples.

Results

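NGA1 (AT2G46870) and JAG (AT1G68480) are transcription factor genes of lateral organ growth that were each read by 1 probe set. They are 2 of the 22810 probe sets on the Affymetrix ATH1 array and were picked by probe set name, not by a threshold on their values. The pick was made with earlier results of these data known. Both passed the filter on low values, which asked for a signal of 50.0 on at least 2 arrays. The RNA came from embryo tissue of the Arabidopsis thaliana accession Col-0, cut out by laser capture. The labels give no mutation, transgene or treatment, so all groups share the Col-0 background and growth on compost under a long day, and they differ in embryo stage and tissue. The growth conditions of globular apical 1 are described in other terms than those of the rest, with a higher humidity. 25 arrays fall into 9 groups over 3 stages: apical and basal tissue at the globular stage, cotyledon pole and root pole at the heart stage, and cotyledon, root, apical, basal and meristem tissue at the torpedo stage. 7 groups hold 3 arrays each, and torpedo cotyledon and torpedo root hold 2 each. 2 more arrays carry a title and a tissue label that contradict each other and entered no comparison. Nothing in the labels ties a capture to a plant or an embryo, so errors below are the spread between arrays, which may be technical.

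NGA1 encodes a B3-domain transcription factor. With its relatives NGA2, NGA3 and NGA4 it limits the growth of leaves and petals at their margins and is needed to form the style of the fruit, and the 4 genes act redundantly. JAG encodes a protein with a single C2H2 zinc finger that promotes growth of the blade of leaves, sepals and petals, in part by repressing inhibitors of the cell cycle. NUB, its closest relative, acts with it in stamens and carpels. Cotyledons are the first lateral organs of the plant, and they grow out between the globular and the torpedo stage. In tissue captures, fewer cells with a transcript and less transcript per cell cannot be told apart.

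The arrays were of uneven quality. Each array was correlated with all others, and the medians ran from 0.249 to 0.583, with 4 arrays under 0.4: torpedo root 1 and 3, heart cotyledon 2 and torpedo meristem 1. The log2 ratio of 3' to 5' actin probe sets, a sign of RNA integrity, ran from 2.40 to 5.31 in torpedo apical and basal captures and from -1.85 to 2.61 in all others. Tissue labels were checked with BBM and JKD, genes of the root pole. Torpedo basal captures held both (BBM at 69.8 to 531, JKD at 78.2 to 125), heart root captures held JKD at 42.0 to 507 and BBM at 9.40 to 557, and torpedo root captures had BBM at 6.30 and 9.10 and JKD at 14.0 and 23.1. In torpedo apical captures BBM was at 1.11 to 3.97 and JKD at 6.22 to 21.3, so for these genes the captures labelled torpedo root lay below all torpedo basal captures. LHW, the third measured gene of the root pole list, was at 12.3 and 8.10 in torpedo root, 94.9 to 115 in torpedo apical and 8.15 to 218 in torpedo basal captures. At the globular stage these genes did not mark the basal captures, with BBM at 6.00 to 2851 in basal and 22.8 to 154 in apical captures and JKD at 9.10 to 76.1 and 13.8 to 80.4.

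NGA1 was high in the apical part of the torpedo embryo and close to the bottom of the scale in the basal part. Its signal, a linear intensity scaled so that the trimmed mean of each array is about 100, was 208, 190.5 and 197 on torpedo apical arrays 4, 5 and 6. On torpedo basal arrays 4, 5 and 6 it was 11.7, 9.80 and 1.94. The groups did not overlap: the lowest apical value was 16.3 times the highest basal value. 4.94% of all tested probe sets likewise had all 3 apical arrays above all 3 basal arrays. Ranked within each array, NGA1 lay at percentiles 85.1 to 85.7 in apical captures and 6.67 to 30.9 in basal captures, a reading that does not depend on how arrays were scaled. The means were 199 ± 8.60 (SD, n = 3) and 7.81 ± 5.17 (SD, n = 3), a log2 difference of 3.60 (SE 0.73, 95% interval 2.10 to 5.09) on the scale of log2 of signal plus 10.0.

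By limma this difference passed the threshold of 0.05 at an adjusted p of 0.0485 (unadjusted p = 3.94e-05), 17th by p among 20890 probe sets, of which 0.0910% were called. The call was a close one. Of 16 alternative settings it held in 2, median centring (adjusted p = 0.0349) and array weights (adjusted p = 0.000179), and it was lost in the other 14, at adjusted p-values of 0.0501 to 0.309. Leaving out any 1 of the 6 arrays ended the call, with log2 differences of 3.33 to 3.76: adjusted p was 0.158, 0.096 and 0.263 without torpedo basal 4, 5 or 6, and 0.309, 0.261 and 0.205 without torpedo apical 4, 5 or 6. The direction was the same in every setting tried, and the log2 difference ran from 2.11 with a pseudocount of 50 to 4.75 with a pseudocount of 1. The spread of NGA1 across the 3 apical arrays was small, with an SD of 0.06 on the log2 scale. Of 2007 probe sets with an apical level within 0.5 log2 units of that of NGA1, 1.15% had a smaller SD, and their median was 0.46.

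**Figure D1:**
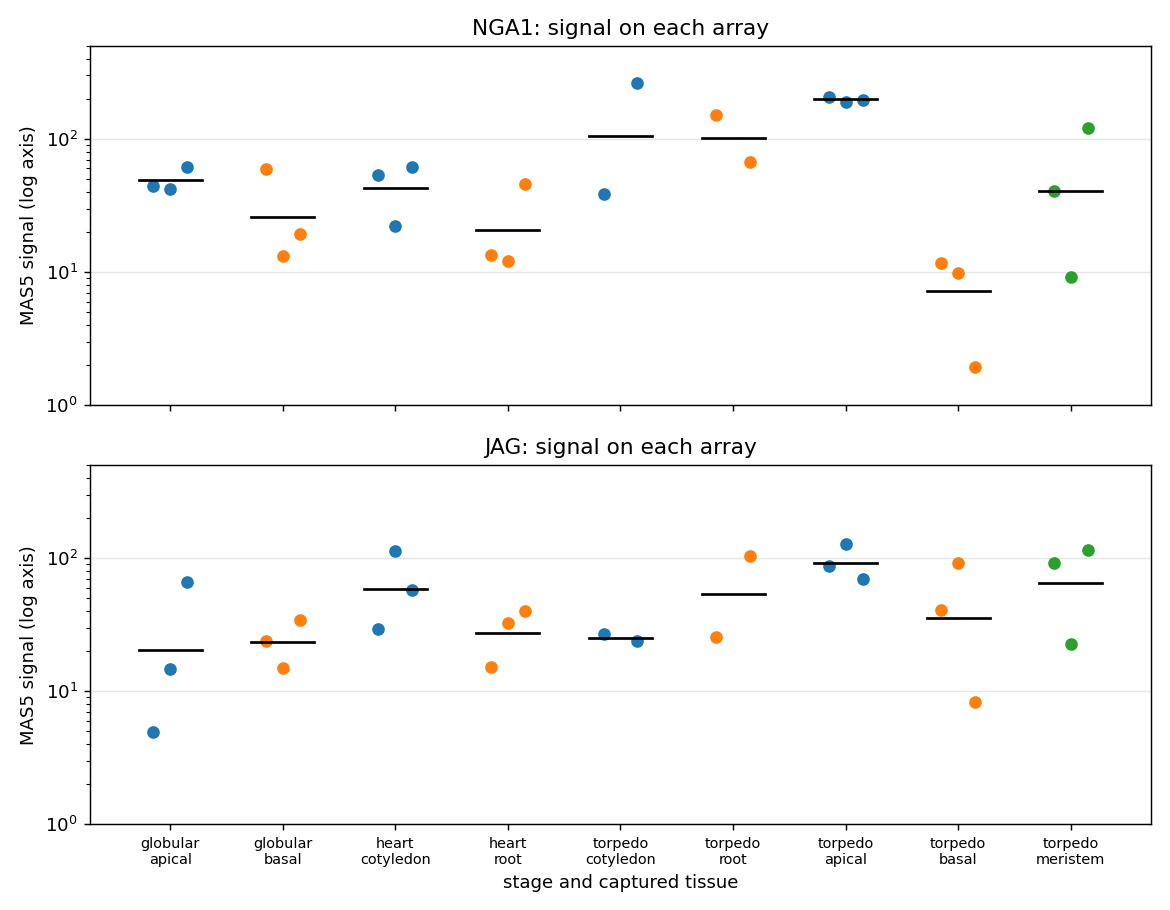
MAS5 signal of NGA1 (top) and JAG (bottom) on each of 25 arrays, on a log axis, by stage and tissue. Each point is an array (blue for apical and cotyledon captures, orange for basal and root captures, green for meristem), and each bar is the group's mean of log2 of signal plus 10.0, turned back to signal. NGA1 sits at 190.5 to 208 in torpedo apical and at 1.94 to 11.7 in torpedo basal captures, whereas the JAG points of these groups overlap.

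JAG was brightest in the same torpedo apical captures, but its basal values reached into the apical range. It was at 87.7, 129 and 69.4 on torpedo apical arrays 4, 5 and 6 and at 41.1, 91.9 and 8.30 on torpedo basal arrays 4, 5 and 6. Torpedo basal 5 alone lay inside the apical range. The means were 95.2 ± 30.3 (SD, n = 3) and 47.1 ± 42.1 (SD, n = 3), and the log2 difference of 1.17 (SE 0.74, 95% interval -0.36 to 2.69) did not pass (adjusted p = 0.999, unadjusted p = 0.128). It moved by more than 1.5 times without torpedo basal 6 (0.51), which holds the lowest basal value, and was 1.74 without torpedo basal 5. All 16 alternatives kept it positive and none called it.

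At the globular stage NGA1 was weak in both tissues of the embryo. It was at 44.5, 42.4 and 61.5 on globular apical arrays 1, 2 and 3 and at 59.6, 13.1 and 19.3 on globular basal arrays 1, 2 and 3. Globular basal 1 lay within the apical range and the other two below it. The log2 difference was 0.71 (SE 0.73, adjusted p = 1.00), and it was 1.18 without globular basal 1 and 0.38 without globular basal 2. JAG was at 4.90, 14.6 and 66.2 on apical arrays. Its basal values were 23.9, 14.9 and 34.6, with apical values on both sides of the basal ones. Its log2 difference of -0.14 (SE 0.74, adjusted p = 1.00) turned positive without globular apical 1 (0.37) or 2 (0.0077) or without globular basal 3 (0.06), so that the data give it no direction. limma called 0% of probe sets between the globular tissues. At an unadjusted p under 0.05 there were 561 of 20890, a smaller share than 0.05.

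In the heart embryo both genes averaged higher at the cotyledon pole, with overlap. NGA1 was at 53.8, 22.2 and 62.1 on heart cotyledon arrays 1, 2 and 3 and at 13.4, 12.1 and 45.9 on heart root arrays 1, 2 and 3. The log2 difference was 0.79 (SE 0.73, adjusted p = 0.973), and it was 1.22 without heart root 3, the one root array above 14. JAG was at 29.4, 113 and 57.5 on cotyledon arrays. On root arrays it was at 15.1, 32.3 and 40.2. Its log2 difference was 0.87 (SE 0.74, adjusted p = 0.973). Heart cotyledon 2, the array with the lowest NGA1 and the highest JAG of that pole, is among the 4 arrays of low correlation, and without it the JAG value was 0.45 and the NGA1 value 1.14. 0.00957% of probe sets were called between the heart poles, and the median difference of all tested was 0.29.

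The difference of NGA1 between the poles was 2.89 log2 units larger in torpedo apical and basal captures than at the globular stage (SE 1.03, 95% interval 0.77 to 5.01). Against the heart stage it was 2.81 larger (SE 1.03, 95% interval 0.69 to 4.93). Neither change passed, at adjusted p-values of 1.00 and 0.912 and unadjusted p-values of 0.00942 and 0.0113. These tests of change had a large standard error, and limma called 0.00479% and 0% of probe sets in them. At an unadjusted p under 0.05 there were 582 and 927 of 20890, each a smaller share than 0.05. That NGA1 was called at the torpedo stage and not earlier therefore does not show that its polarity differed between stages. For JAG the changes were 1.31 (SE 1.05, adjusted p = 1.00) against the globular and 0.29 (SE 1.05, adjusted p = 0.966) against the heart stage. Without single arrays the first ran from 0.65 (without torpedo basal 6) to 1.97 (without globular apical 3), and the second from -0.37 (without torpedo basal 6) to 0.87 (without torpedo basal 5), also negative without heart cotyledon 1 (-0.11). From globular to heart the difference changed by 0.08 for NGA1 (SE 1.03, adjusted p = 0.999) and by 1.01 for JAG (SE 1.05, adjusted p = 0.995). There 0% of probe sets were called, and 925 of 20890 had an unadjusted p under 0.05. The JAG value was 0.50 without globular apical 1, 0.60 without heart cotyledon 2 and 1.68 without globular apical 3. The NGA1 value has no settled sign, since leaving out single arrays gave -0.39 to 0.51 (negative without globular basal 1, globular apical 2, heart cotyledon 1 or 3, or heart root 1 or 2).

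**Figure D2:**
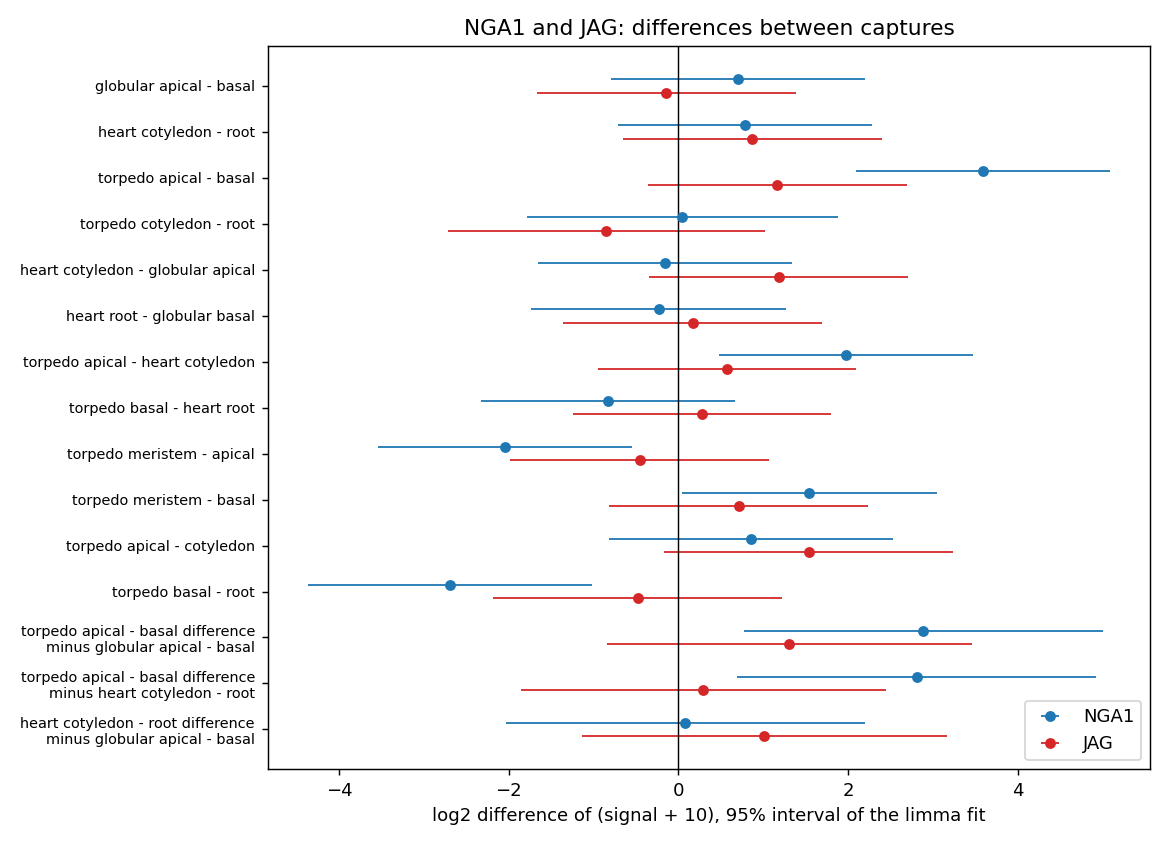
Log2 difference of signal plus 10.0 for NGA1 (blue) and JAG (red) in 15 comparisons, with the 95% interval of the limma fit. The interval of NGA1 for torpedo apical minus basal runs from 2.10 to 5.09, and each JAG interval includes 0.

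Along the upper part of the embryo, NGA1 averaged 49.5 in globular apical, 46.0 in heart cotyledon and 199 in torpedo apical captures. The first step was -0.15 log2 units (SE 0.73, adjusted p = 1.00, 0.0527% of probe sets called), and it was 0.20 without heart cotyledon 2. In the second step all torpedo apical arrays lay above all heart cotyledon arrays, as they did for 8.44% of probe sets. That log2 difference was 1.98 (SE 0.73, 95% interval 0.48 to 3.48), with an unadjusted p of 0.0116 and an adjusted p of 0.189, and 0.0670% of probe sets were called, with a median of -0.46 over all tested. Over 16 alternatives it ran from 1.40 to 2.47 and was called in none. JAG averaged 28.6, 66.5 and 95.2 along the same captures. Its steps were 1.18 (SE 0.74, adjusted p = 1.00) and 0.57 (SE 0.74, adjusted p = 0.673), and the first was 0.67 without globular apical 1, 0.77 without heart cotyledon 2 and 1.85 without globular apical 3. The second was 0.17 without heart cotyledon 1, 0.36 without torpedo apical 5 and 0.99 without heart cotyledon 2.

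Both genes were above every globular array on all 3 torpedo apical arrays. The highest globular value was 61.5 for NGA1 and 66.2 for JAG, against lowest apical values of 190.5 and 69.4. 6.70% of tested probe sets showed the same order. For JAG the margin was small and came from globular apical 3, since its other globular values ended at 34.6. Apical and globular arrays also differed in the actin ratio, at 3.84 to 5.31 against -1.83 to 0.52, and in deposited form, since values of the other 16 arrays carry 1 decimal and those of the 9 apical, basal and meristem arrays at the torpedo stage are unrounded. Stage and these features cannot be told apart.

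In the lower part of the embryo NGA1 averaged lower at each later stage, with no step past the threshold. Its mean was 30.7 in globular basal, 23.8 in heart root and 7.81 in torpedo basal captures. The step from globular to heart was -0.23 (SE 0.73, adjusted p = 0.940, 0.0191% of probe sets called), and it turned to 0.24 without globular basal 1 and 0.0021 without heart root 2. In the step to torpedo basal the groups did not overlap, but only just, with 11.7 as the highest basal and 12.1 as the lowest heart root value. 6.93% of probe sets had that order. The log2 difference of -0.83 (SE 0.73) did not pass (adjusted p = 0.857, 0.0670% of probe sets called), and it was -0.40 without heart root 3. JAG averaged 24.5, 29.2 and 47.1 there, with steps of 0.17 (adjusted p = 0.957) and 0.28 (adjusted p = 0.963). Each of these JAG steps changed sign when single arrays were left out: the first without heart root 3 (-0.04) or globular basal 2 (-0.05), the second without torpedo basal 5 (-0.30) or heart root 1 (-0.0130).

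The torpedo meristem captures spread widely for both genes. NGA1 was at 40.4, 9.25 and 122 on meristem arrays 1, 2 and 3, so that 1 array matched the basal range and none reached the apical range. 9.34% of probe sets had all meristem arrays below all apical arrays. The log2 difference from apical was -2.05 (SE 0.73, unadjusted p = 0.00923, adjusted p = 0.126, 0.211% of probe sets called). The difference from basal was 1.55 (SE 0.73, unadjusted p = 0.0437, adjusted p = 0.509, 0.0144% of probe sets called). The medians over all tested probe sets were 0.54 and 0.41. The first was -1.36 without meristem 2 and -2.74 without meristem 3. The second was 2.24 and 0.85 without the same arrays. JAG was at 91.8, 22.6 and 115 on the same arrays, within the apical range on 2 of them. Its difference from apical was -0.46 (SE 0.74, adjusted p = 0.729) and became 0.14 without meristem 2, and its difference from basal was 0.71 (SE 0.74, adjusted p = 0.726), at 0.05 without torpedo basal 6 and 1.31 without meristem 2. Meristem 2 was thus lowest of the 3 for both genes. CLV3, the stem cell peptide gene that marks the shoot meristem, was at 132 on that array, between 52.9 on meristem 1 and 510.1 on meristem 3. Meristem minus apical was 2.81 for CLV3 (SE 0.70, adjusted p = 0.0698) and 1.82 for LAS, a gene of organ boundaries (SE 0.77, adjusted p = 0.175), and PTL, the third measured gene of 13 boundary and meristem genes, did not pass the filter.

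The torpedo captures labelled cotyledon and root did not separate NGA1. It was at 38.8 and 262 on torpedo cotyledon arrays 1 and 3 and at 151 and 67.6 on torpedo root arrays 1 and 3. Both root values lay between the cotyledon values, and the log2 difference was 0.04 (SE 0.89, 95% interval -1.79 to 1.88, adjusted p = 0.991). It was -1.20 without cotyledon 3, -0.48 without root 3 and 1.28 without cotyledon 1. JAG was at 27.0 and 23.7 on the cotyledon arrays. On the root arrays it was at 25.4 and 105. Its difference of -0.85 (SE 0.91, adjusted p = 0.778) was -0.0036 without root 3 and -1.70 without root 1. 0.00957% of probe sets were called in this comparison.

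The cotyledon and root captures were also set against the apical and basal captures of the same stage. For NGA1 both root arrays lay above all 3 basal arrays, with a log2 difference of -2.70 for basal minus root (SE 0.82, 95% interval -4.37 to -1.02, unadjusted p = 0.00274, adjusted p = 0.063). 23.6% of probe sets had all basal arrays below both root arrays, 2.67% were called, and the median difference of all probe sets was -0.52. With quantile normalization the NGA1 difference was -2.17 and with a pseudocount of 50 it was -1.42. The actin ratio was -1.46 and -1.21 on the root arrays and 2.40 to 4.79 on the basal arrays. At the upper end NGA1 in apical captures lay between the cotyledon arrays, with a log2 difference of 0.85 (SE 0.82, adjusted p = 0.565) that became -0.38 without cotyledon 1 and 2.09 without cotyledon 3. JAG was higher on all apical than on both cotyledon arrays, an order shared by 16.5% of probe sets, and the log2 difference was 1.54 (SE 0.83, 95% interval -0.17 to 3.24, adjusted p = 0.298, 0.0527% of probe sets called). For JAG basal minus root was -0.48 (SE 0.83, adjusted p = 0.767), at 0.37 without torpedo root 3 and 0.18 without torpedo basal 6. The part of array quality and deposited form in these differences was not tested.

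Over all 9 groups NGA1 ran, by mean log2 level, from torpedo apical through torpedo cotyledon, torpedo root, globular apical, heart cotyledon, torpedo meristem, globular basal and heart root down to torpedo basal. Of the 8 neighbouring pairs in this order 2 had ranges that did not overlap. One was torpedo root above globular apical (67.6 against 61.5 at the closest), as for 21.0% of probe sets, and the other was heart root above torpedo basal. The 3 torpedo apical arrays exceeded all arrays of the 7 groups other than torpedo cotyledon, an order held by 0.311% of probe sets. Of the 22 other arrays 1, torpedo cotyledon 3, lay above the lowest apical value. The order leaves out the group of that array, so the 0.311% is fitted to NGA1 and is no test of it. JAG ran from torpedo apical through torpedo meristem, heart cotyledon, torpedo root, torpedo basal, heart root, torpedo cotyledon and globular basal to globular apical, and each of its 8 neighbouring pairs overlapped. JAG had a signal of 50.0 or more on 10 of 25 arrays and NGA1 on 11. Of 15 comparisons limma called 1 for NGA1 and 0 for JAG. At an unadjusted p under 0.05 there were 7 for NGA1 and 0 for JAG, the lowest p of JAG being 0.0753. In these 7 comparisons 582 to 4829 of the 20890 tested probe sets had an unadjusted p under 0.05. All 7 use torpedo apical or torpedo basal captures, so they are not separate results. Adjustment was within each comparison and not over these 30 tests. Across the 25 arrays, which share the shifts described above, the log2 levels of NGA1 and JAG had a Pearson correlation of 0.38 and a Spearman correlation of 0.35. Over the 9 group means these were 0.47 and 0.23.

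None of the other NGATHA genes was called by limma between torpedo apical and basal captures, and their levels differed from gene to gene. NGA2 was at 164, 209 and 156 on torpedo apical arrays 4, 5 and 6 and at 48.3, 113 and 39.4 on the basal arrays. These did not overlap, an order shared by 4.94% of tested probe sets. NGA2 differed by 1.39 (SE 0.78, adjusted p = 0.999). Its highest value was 1209 on a heart cotyledon array. NGA3 was at 1.38 to 3.30 in apical and 2.17 to 15.2 in basal captures, a difference of -0.47 (SE 0.67). Its values above 30 were 151 on torpedo cotyledon 3 and 125 and 30.2 on the torpedo root arrays. NGA4 was at 4.03 to 19.1 in apical and 15.8 to 43.0 in basal captures (-0.81, SE 0.78), and was highest in torpedo root captures at 247 and 303. Both torpedo root arrays are of low correlation, and 23.6% of probe sets had all basal arrays below both of them. AT3G11580, a B3 gene close to the NGATHA genes, was at 6.86 to 40.3 and 28.8 to 106 (-0.86, SE 0.73). Of these 5 measured B3 genes, of 13 listed, limma called NGA1 alone between torpedo apical and basal captures. Over all tested probe sets 0.0910% were called there, so the lack of a call for the relatives does not set NGA1 apart. The NGA1 call held in only 2 of 16 alternative settings, and no test of the difference between the genes was made.

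**Figure D3:**
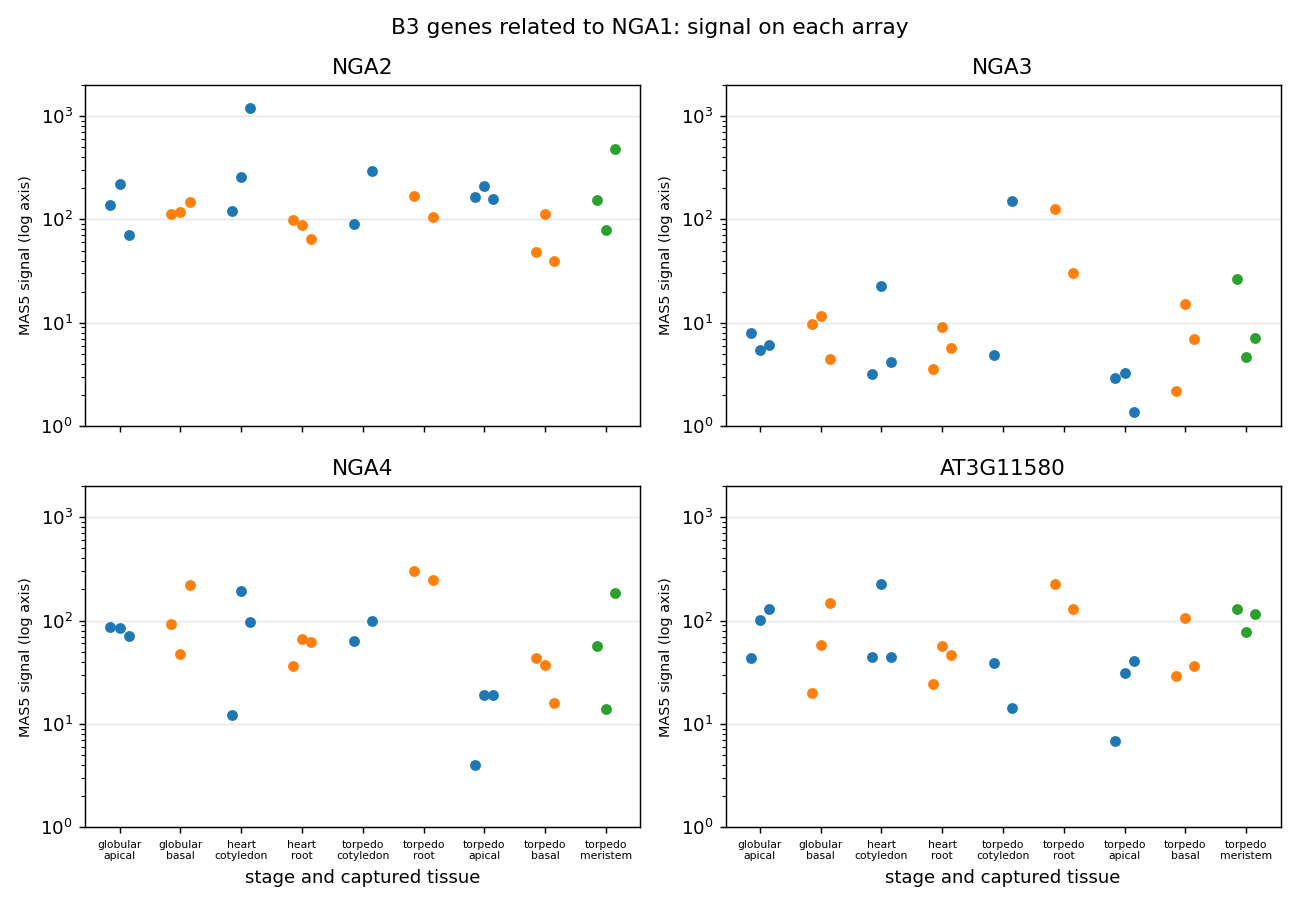
MAS5 signal of 4 B3 genes related to NGA1 on each of 25 arrays, on a log axis, by stage and tissue, with blue for apical and cotyledon, orange for basal and root and green for meristem captures. NGA2 is at 156 to 209 in torpedo apical captures, and NGA3 and NGA4 are at 1.38 to 3.30 and 4.03 to 19.1 there.

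The measured relatives of JAG were likewise not called. NUB was at 33.6 to 56.1 in torpedo apical and 12.1 to 104 in basal captures, a difference of 0.20 (SE 0.73). At earlier stages it was at 134 to 149.5 in heart cotyledon, 10.1 to 105 in heart root, 29.5 to 142 in globular apical and 94.0 to 296 in globular basal captures. Its steps to the torpedo stage did not pass, at -1.55 for torpedo apical minus heart cotyledon (SE 0.73, adjusted p = 0.267) and -0.37 for torpedo basal minus heart root (SE 0.73, adjusted p = 0.946). RBE, a petal zinc finger gene, differed by -0.29 (SE 0.70), and GIS, a zinc finger gene of hair formation, by -0.61 (SE 0.74). GIS was highest in torpedo root captures at 189 and 398, both on arrays of low correlation. TAC1, a telomerase activator gene, stayed between 1.92 and 24.8 on all arrays and did not pass the filter. Of 18 genes listed with JAG 5 were measured and 4 tested, none called in either direction between torpedo apical and basal captures (adjusted p = 0.999 for each). Of all tested probe sets 0.0910% were called there.

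Genes of organ growth, polarity and auxin were read beside the members. They belong to 9 lists that also cover the relatives above and genes of the shoot meristem, root pole, endosperm and seed coat. Together the 9 lists hold 129 other genes, of which 25 were measured and 23 tested. None of the 23 was called by limma in any of the 15 comparisons. Over all tested probe sets the share called was 0% to 2.67%, so the lack of calls says little about these genes. Between torpedo apical and basal captures 12 of the 23 had positive differences, against 42.1% of all tested probe sets. An unadjusted p under 0.05 was found for 5 of the 23 and for 817 of all 20890 tested. The lists were chosen with earlier results of these data known, so these shares are no test of the listed genes. The median of the 23 was 0.02 against -0.14 over all tested probe sets. The 3 measured organ polarity genes of 16 were positive: YAB3, of abaxial identity (3.55, SE 0.89, adjusted p = 0.192), PHV, of adaxial identity (1.94, SE 0.88), and YAB5 (0.59, SE 0.92). YAB3 was at 757, 484 and 439.7 on the apical arrays and between 20.0 and 83.0 on the basal arrays. These did not overlap, as for 4.94% of tested probe sets. YUC4, an auxin synthesis gene, was at 263, 317 and 203 against 20.3, 45.3 and 22.4 (2.82, SE 0.83, adjusted p = 0.445). Its relative YUC2 was at -0.28 (SE 0.77) and SHI, which shares a role in style formation with the NGATHA genes, at 0.74 (SE 1.01). Of 34 organ growth genes 2 were measured, and TCP15 and ARL differed by -0.11 (SE 0.63) and -0.09 (SE 0.64). BBM and JKD stood at -4.17 (SE 1.28) and -2.35 (SE 0.87), and LHW, also listed for the root pole, at 0.38 (SE 1.02).

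Markers of other tissues were few. Of 9 endosperm genes AGL62 and IKU2 were measured, and their summed signal was 10.2 to 25.3 in torpedo apical and 8.52 to 51.3 in torpedo basal captures. It was 22.4 to 175 in meristem and 139 to 150.0 in torpedo root captures. Of 9 seed coat genes BAN alone was measured, at 2.19 to 13.2 in apical and 1.72 to 16.3 in basal captures and at up to 445 in globular apical captures. The ranges of torpedo apical and basal captures overlapped for both marker lists, and no marker value was 0. The part of other tissues in the NGA1 difference was not tested.

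**Figure D4:**
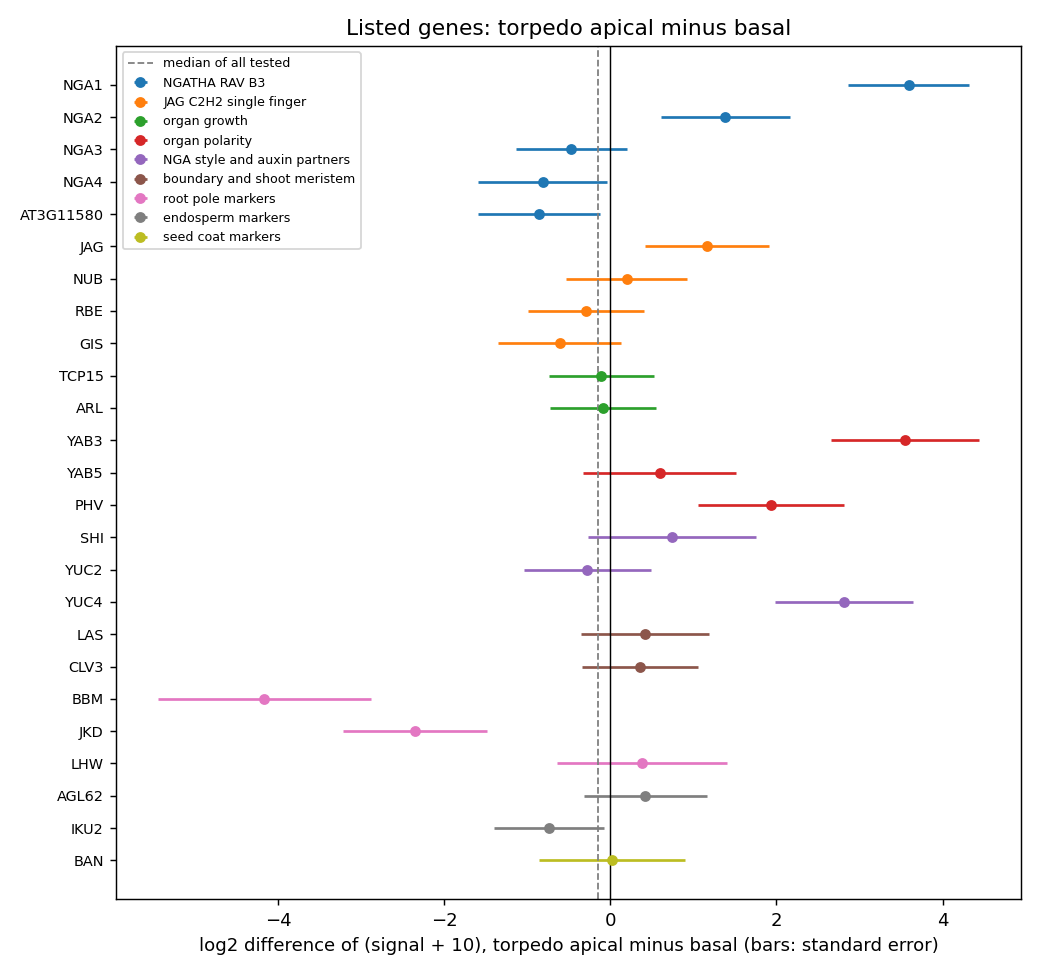
Log2 difference between torpedo apical and basal captures for the 25 tested genes of the lists, NGA1 and JAG included, with standard errors as bars, coloured by list. The dashed line is the median of all tested probe sets, -0.14. NGA1 (3.60), YAB3 (3.55) and YUC4 (2.82) lie farthest to the apical side, and BBM (-4.17) and JKD (-2.35) farthest to the basal side.

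By correlation of log2 levels over the 25 arrays, the 5 named genes most like NGA1 were AT5G44680 (r = 0.72), YAB3 (0.69), AT5G54630 (0.67), AT1G15260 (0.65) and CP1 (0.63). Over the 9 group means the same genes had r of 0.77 to 0.85. AT5G44680 was the closest of all 20890 tested probe sets to NGA1. It averaged 289 in torpedo apical, 3.04 in torpedo basal and 12.5 to 35.5 in the other 7 groups. It differed between torpedo apical and basal by 4.44 (SE 0.57, adjusted p = 0.000594), while at the globular and heart stages it differed by -0.07 and -0.02 (SE 0.57 each). The 5 most like JAG were AT5G54300 (r = 0.75), AT1G06540 (0.64), SIZ1 (0.64), the plastid gene rps16 (0.63) and AT1G18610 (0.62). Their r over group means was 0.29 to 0.82, and their torpedo apical minus basal differences ran from -0.66 to 1.41, with adjusted p = 0.999 for each. These correlations are descriptions over arrays that share the shifts in quality given above. The genes were picked by likeness over these same arrays, so their differences are no independent support for those of NGA1 or JAG.

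**Figure D5:**
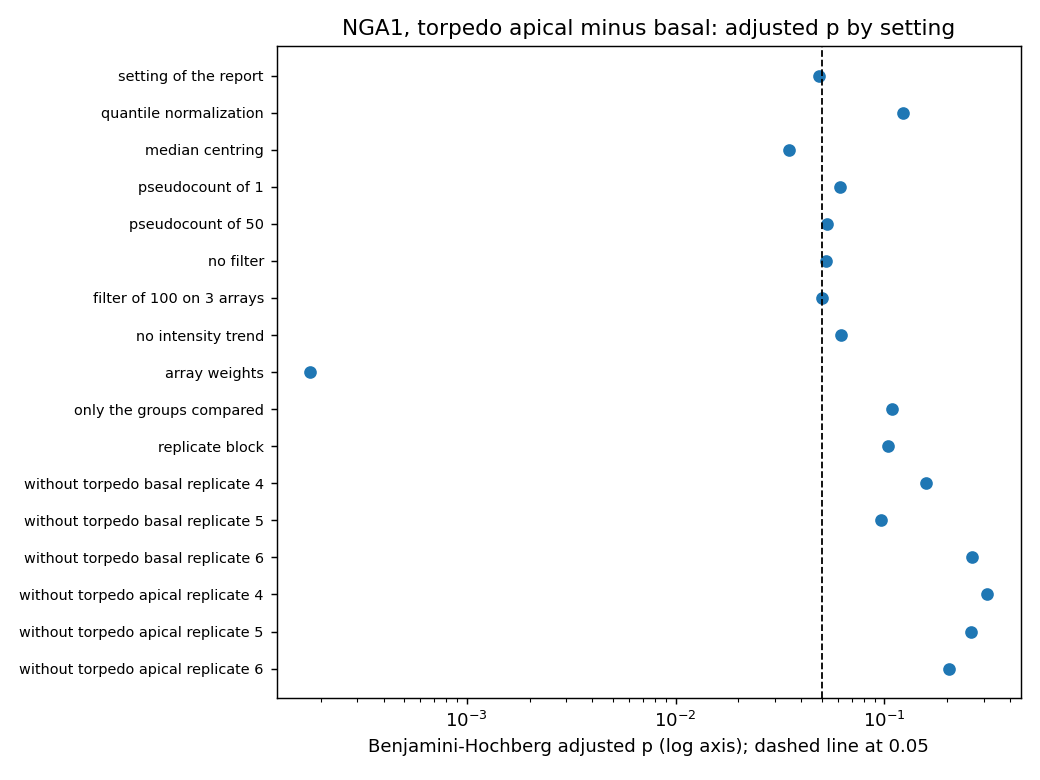
Adjusted p of NGA1 for torpedo apical minus basal under the setting of the report and 16 alternatives, on a log axis, with a dashed line at 0.05. The points lie from 0.000179 with array weights to 0.309 without torpedo apical 4, and 14 alternatives lie to the right of the line.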

How the data were processed

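The authors deposited 1 intensity per probe set and array, a MAS5 signal per the submitters' processing notes, which name no version or settings. With 2% trimmed from both ends each array's mean is near 100, and arrays were not scaled further. Scanner files were not analysed here and detection calls were not used, so a low signal is not a call of absence. 64 control probe sets were left out. Signals plus a pseudocount of 10.0 were taken as log2, and probe sets with 50.0 or more on at least 2 of 25 arrays (20890) were fitted in limma 3.58.1 (R 4.3.3) with 1 mean per group and an intensity trend, 2-sided, adjusting p-values by Benjamini and Hochberg over all probe sets of a comparison. Every adjusted p in the text is from this fit or from an alternative named beside it. A log2 difference on this scale understates changes of dim probe sets. The fit was tested on simulated data.

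Probe sets were named from the platform's gene table, with identifiers updated through RefSeq names of TAIR10.1 (13436 of 13513 matched). Another 503 probe sets have several genes and 8730 none there and were not named. Named genes are NGA1, JAG, their measured relatives, up to 4 members of each list by size of difference, and the 5 single-gene probe sets most correlated with each member. Members and lists were chosen with earlier results of these data known. The alternatives are given in the closing section.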

Additional observations from a re-analysis of the deposited data

How the results depend on the processing

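The torpedo apical minus basal difference of NGA1 lost its call after quantile normalization (3.33), with a pseudocount of 1 (4.75) or 50 (2.11), and, at 3.60, without a filter, with a filter of 100 on 3 arrays, without the intensity trend, with only the groups compared and with the replicate number as a block; without single arrays it was 3.33 to 3.76. The count of called probe sets there, 19, came to 9 on quantile-normalized values, 5 with a pseudocount of 1, 12 with the stricter filter, 7 without the trend, 196 with array weights, 1 with only the groups compared, 10 with the replicate block and 3 to 17 without single arrays. No other of the 30 differences was called in any alternative. 11 differences, none called, changed sign somewhere. For NGA1 these were heart cotyledon minus globular apical (0.032 after quantile normalization, 0.086 with array weights, 0.20 without arrays of low correlation, -0.38 to 0.20 without single arrays), heart root minus globular basal (0.16 after quantile normalization, 0.23 after median centring, -0.67 to 0.24 without single arrays) and the change of polarity from globular to heart (-0.13, -0.27 and -0.39 to 0.51 likewise). Torpedo cotyledon minus root (-1.20 to 1.28) and apical minus cotyledon (-0.38 to 2.09) turned without single arrays alone. For JAG they were globular apical minus basal (0.0075 with a pseudocount of 50, -0.81 to 0.37 without single arrays), torpedo basal minus heart root (-0.23 with array weights, -0.30 to 0.94) and torpedo basal minus root (0.22 after quantile normalization, 0.091 after median centring, -1.33 to 0.37). Without single arrays alone, heart root minus globular basal (-0.047 to 0.46), meristem minus apical (-0.83 to 0.14) and the change of polarity from heart to torpedo (-0.37 to 0.87) turned. The causes were not tested. The replicate numbers are not taken as pairs, because no label says that they pair captures. Deviations of same-numbered arrays had r of -0.08 to 0.06 for torpedo apical and basal, -0.09 to 0.06 for globular, and 0.09 for torpedo cotyledon and root. For the heart poles r was positive throughout, at 0.07, 0.15 and 0.38, so these values do not settle pairing at that stage. The few arrays per group limit every value, and basal NGA1 signals lie near the bottom of the scale, where the log2 difference depends most on the pseudocount.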

Other observations

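The 2 arrays whose title and tissue label contradict each other were read for both genes but put in no group. The array titled torpedo cotyledon and labelled embryo root had NGA1 at 182 (percentile 84.3 on its array) and JAG at 47.1 (percentile 50.4). The array titled torpedo root and labelled embryo cotyledon had NGA1 at 159 (percentile 74.0) and JAG at 7.80 (percentile 4.12). Both NGA1 values lay above every torpedo basal value (at most 11.7) and below every torpedo apical value (at least 190.5). The share of probe sets with this order was not counted. In the grouped arrays 23.6% of probe sets had all torpedo basal arrays below both torpedo root arrays.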
